A study of Bos indicus with 8 samples.

Results

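Protein glycosylation enzymes build, trim and extend the sugar chains of secreted and membrane proteins, and their transcripts were measured in bovine cumulus cells after culture with or without adenosine. The genes were chosen by the platform's gene symbol, with earlier results of these data known. Taken were all symbols that begin with MAN1, MAN2, MGAT, ALG, FUT, B3GNT, B4GALT, B3GALT, ST3GAL, ST6GAL, ST8SIA or GALNT, and the single symbols STT3A, STT3B, RPN1, RPN2, DDOST, DAD1, DPAGT1, MOGS, GANAB and UGGT1. The array held 139 such probes for 101 genes, of 43794 probes and 15229 named genes in all. Of these, 114 probes for 87 genes were bright enough to be tested, against 31923 probes and 12310 named genes over the whole array. The 14 genes with no probe bright enough were B3GALT4, B3GNT7, FUT4, FUT7, FUT9, GALNT3, GALNT5, GALNT6, GALNT8, GALNTL2, GALNTL4, ST6GAL2, ST8SIA1 and ST8SIA3. MOGS and MAN1B1, the glucosidase and mannosidase that trim first in the endoplasmic reticulum, had no probe under those names.

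The cells came from cumulus-oocyte complexes of slaughterhouse cattle (labelled Bos indicus), taken from follicles of 3 to 6 mm. Both groups were cultured for 6 h with recombinant human FSH at 0.5 µg/ml, oestradiol at 1 µg/ml, 10% serum and 0.2 mM pyruvic acid. The adenosine group also received 3 mM adenosine, and the control group did not. Each group had 4 pools, which the labels call biological replicates with a number per pool of 10. The labels do not say whether pools came from separate animals, and p-values here cover only differences between these pools, which may be technical. Each adenosine pool shared an array with the control pool of its number, on 2 arrays with the Cy3 and Cy5 dyes exchanged, which makes 8 arrays and 4 pool pairs.

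N-glycans start as an oligosaccharide that the ALG enzymes assemble on the lipid dolichol at the membrane of the endoplasmic reticulum. The oligosaccharyltransferase moves it to asparagines of new proteins, glucosidases and mannosidases trim it, and Golgi transferases add N-acetylglucosamine, galactose, fucose and sialic acid. Mucin-type O-glycans start in the Golgi, where the GALNT enzymes put N-acetylgalactosamine on serines and threonines. In the cumulus, glycoproteins and glycan-carrying matrix proteins surround the oocyte and take part in the expansion that FSH starts.

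A ratio below is the log2 ratio of adenosine over control, as the mean ± SD of 4 pool pairs, so 1 stands for a doubling of the signal. A level is the normalised log2 brightness of a probe in a pool, which can be compared between pools but not between probes. A gene is called higher or lower where limma's test of the 4 ratios against 0 gave an adjusted p under 0.05 over all probes tested, and is read from its brightest tested probe. On the whole array, 37.2% of probes were called, with 18.7% higher and 18.5% lower. Of the named genes 42.6% were called, with 21.8% higher and 20.8% lower. On 7 arrays between 71.0% and 87.4% of probes were above the negative controls in each channel. The dye-swapped array of pair 3 that carried the adenosine RNA in Cy3 stood apart at 45.4% in the adenosine channel and 41.3% in the control channel. All 8 listed cumulus and granulosa markers were bright enough to be tested. So were 7 of 10 oocyte markers, 3 of 3 red cell markers and 1 of 3 theca markers. Being tested therefore does not show which cells were present. Of the 8 cumulus and granulosa markers 3 were higher, 1 was lower and 4 did not pass. Of 5 fibroblast markers 4 were tested, and 3 of them (LUM, DCN and PDGFRA) were lower with adenosine while COL1A1 was higher. The 4 summed to a linear level of 1347 to 2069 in the adenosine pools and 4762 to 6543 in the control pools. The summed level of the cumulus and granulosa list was 18464 to 28055 with adenosine and 31927 to 38293 in control. A linear sum is weighted to the brightest probes. In that list INHBA was lower at -0.98 ± 0.15, while FSHR (0.72), FST (0.57) and AMH (0.49) were higher. The endothelial marker KDR was lower and above the negative controls in 0 of 8 adenosine and 8 of 8 control values, and the 2 endothelial markers tested summed to 135 to 142 with adenosine and 207 to 283 in control. The leukocyte marker CD68 was lower at -0.56 ± 0.21, with summed levels of the 3 leukocyte markers tested that overlapped. The part of other cells in the results below was not tested. In RNA from pooled cells, fewer cells of a type and less RNA per cell cannot be told apart.

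Adenosine pools carried more transcript of 29 glycosylation enzymes and less of 9, while 49 did not pass the test. The 38 called genes are 43.7% of the 87 tested, close to the 42.6% of all named genes, so a call as such does not set these enzymes apart. Higher calls made up 33.3% of them and lower calls 10.3%, against 21.8% and 20.8% of all named genes. By role, between 16.7% (fucosyltransferases) and 85.7% (mannosidases) were called. No role was tested as a list. The median ratio over the 87 genes was 0.07, against 0.00 over all named genes. All 38 called genes had the same sign in all 4 pool pairs and in both dye orientations. The call rests on these same ratios, so this shared sign adds no separate evidence. The levels of the adenosine and control pools did not overlap for 31 of the 87 genes, or 35.6%, against 31.1% of all named genes. With the offset of 50 that the background correction added to every intensity, 5 rises and 2 falls went beyond 1 on the log2 scale, and MAN1A1 was the only called gene past 4-fold. The offset sets these sizes for dimmer probes: with an offset of 0, ALG2 was at -2.52, B4GALT5 at -2.19, ST8SIA4 at -1.47 and ST3GAL1 at -1.15. Where pool pair 4 was left out, 18 of the enzymes were higher and 5 lower, and over all named genes 1495 were higher and 1601 lower. With the arrays centred on their medians in place of loess, the calls over all named genes moved from 2678 higher and 2564 lower to 1977 higher and 3297 lower, and the enzymes then counted 23 higher and 10 lower.

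**Figure D1:**
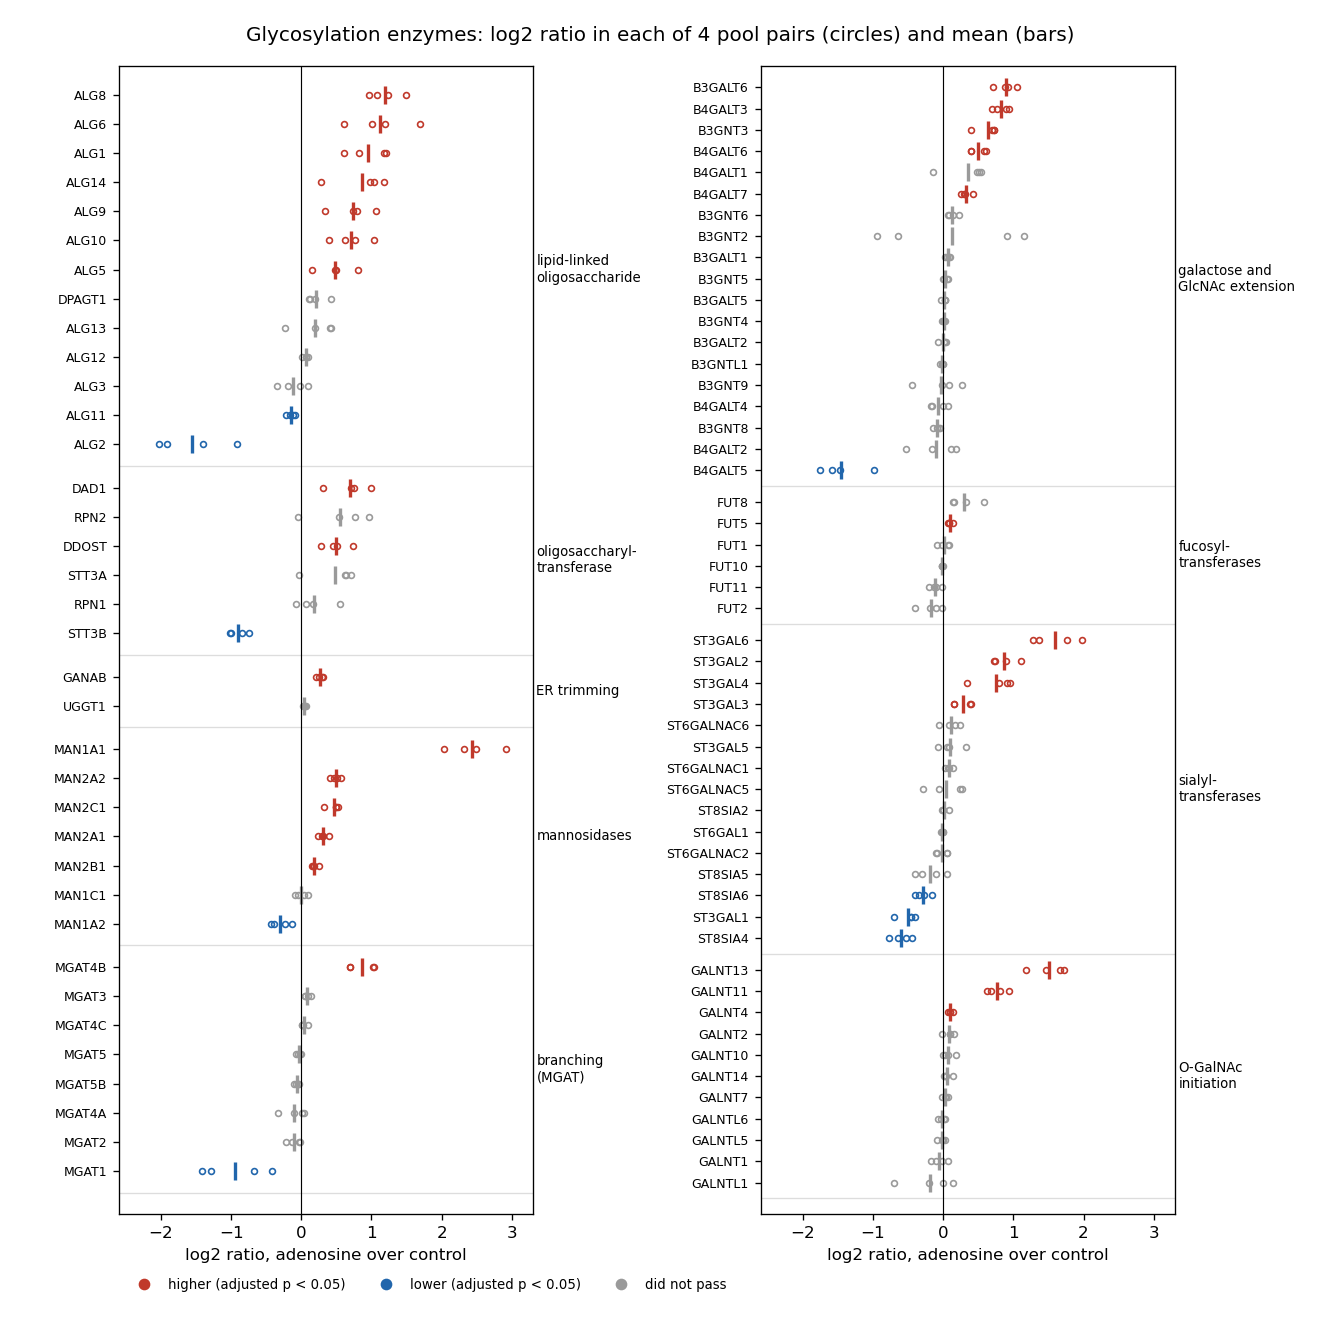
Log2 ratio of adenosine over control for the 87 enzymes tested, grouped by role, with the 4 pool pairs as circles and their mean as a bar; red is higher, blue lower and grey did not pass. MAN1A1 lies far right at 2.44, ALG2 and B4GALT5 lie far left at -1.56 and -1.45, and most branching, fucose and O-GalNAc enzymes lie close to 0.

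Of the 13 enzymes that assemble the lipid-linked oligosaccharide, 7 were higher, 2 were lower and 4 did not pass, with a median ratio of 0.48. Called genes made up 69.2% of the 13, against 42.6% of all named genes. The largest rise was that of ALG8, which adds the second glucose to the chain. Its levels were 9.54, 9.21, 9.29 and 9.13 in the adenosine pools and 8.30, 8.25, 7.80 and 8.05 in the control pools of the same numbers. Every adenosine pool lay above every control pool. The ratio was 1.19 ± 0.23, or 2.29-fold higher (adjusted p = 0.00229 by limma). ALG6, which adds the glucose before it, had levels of 8.54, 8.83, 9.0 and 8.82 with adenosine and 7.34, 8.22, 7.31 and 7.81 in control. Again the groups did not overlap, although the control pools spread over almost 1 log2 unit. The ratio of ALG6 was 1.12 ± 0.45, or 2.18-fold higher (adjusted p = 0.013 by limma), and its 2 other probes gave 1.13 and 0.76, both also higher.

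The other 2 genes of the glucose steps were higher too. ALG10, which adds the last glucose, had a ratio of 0.70 ± 0.27, and its dimmer probe was also higher, at 0.14. ALG5, which makes the dolichol-linked glucose that all 3 transferases use, had a ratio of 0.48 ± 0.27, and its pool levels overlapped. ALG5 was read by 4 probes, of which 3 were called higher (0.48, 0.60 and 0.56) and the dimmest gave 0.29 ± 0.21 without passing. All 4 enzymes of glucose addition were thus called in the same direction. They were not set apart as a role of their own before the counts. All have a mean log2 brightness of at least 7, where 31.7% of all named genes were called higher. Without pool pair 4, the calls of ALG6 (1.16), ALG10 (0.73) and ALG5 (0.48) did not pass, at nearly the same ratios from 3 pairs. ALG6 at 1.10 and ALG5 at 0.37 also missed the threshold without pool pair 1, as did ALG5 at 0.48 without pair 3. With median centring, ALG10 at 0.44 and ALG5 at 0.24 did not pass.

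Earlier steps of the assembly did not move one way. ALG1, which adds the first mannose, had ratios of 0.61, 1.21, 0.82 and 1.18 in the 4 pairs, so that all adenosine pools were above all control pools. Its mean was 0.95 ± 0.29, or 1.94-fold higher (adjusted p = 0.0066 by limma). The dimmer ALG1 probe was also higher but by less, at 0.24. ALG14, the membrane anchor of the enzyme for the second N-acetylglucosamine, had ratios of 1.18, 0.28, 1.03 and 0.97, with pair 2 well below the others. The mean was 0.87 ± 0.40 (adjusted p = 0.0195 by limma), and its catalytic partner ALG13 had 0.20 ± 0.31 and did not pass. ALG9, a mannosyltransferase of the lumenal side, was higher at 0.73 ± 0.30, while its neighbours ALG3 at -0.11 ± 0.20 and ALG12 at 0.06 ± 0.04 did not pass. DPAGT1, which starts the chain, had 0.21 ± 0.15 and did not pass. The call of ALG14 was lost without pair 1 (0.76), pair 3 (0.81) or pair 4 (0.83) and with median centring (0.50). That of ALG9 was lost without pair 2 (0.73) or pair 3 (0.71) and with median centring (0.37). ALG13 at 0.35 passed without pair 2. Without pair 4, 3 of the 13 assembly genes were higher and 1 was lower.

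ALG2 went the other way by the largest fall among all the enzymes. This mannosyltransferase acts directly after ALG1. Its levels were 6.51, 6.31, 6.91 and 6.55 with adenosine and 7.91, 7.22, 8.94 and 8.46 in control. The adenosine pools lay close together and below all control pools, which themselves spread over 1.72 log2 units. The ratio fell by 1.56 ± 0.51, or 2.95-fold lower (adjusted p = 0.00792 by limma). ALG11, which follows ALG2 on the same face of the membrane, was also lower. Its brighter probe gave -0.15 ± 0.06 and its dimmer probe -1.19 ± 0.17, both called, so the direction is shared and the size is not settled by these probes. The smaller ALG11 value did not pass without pair 1 (-0.12), pair 3 (-0.14) or pair 4 (-0.15). Its call was also lost in the authors' deposited value table (-0.04) and with a stricter filter. The same held with adenosine in Cy3 alone and when pools were compared without their pairing. In the main fit ALG1 upstream and ALG9 downstream were thus higher while ALG2 and ALG11 between them were lower, as the plot in pathway order shows.

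**Figure D2:**
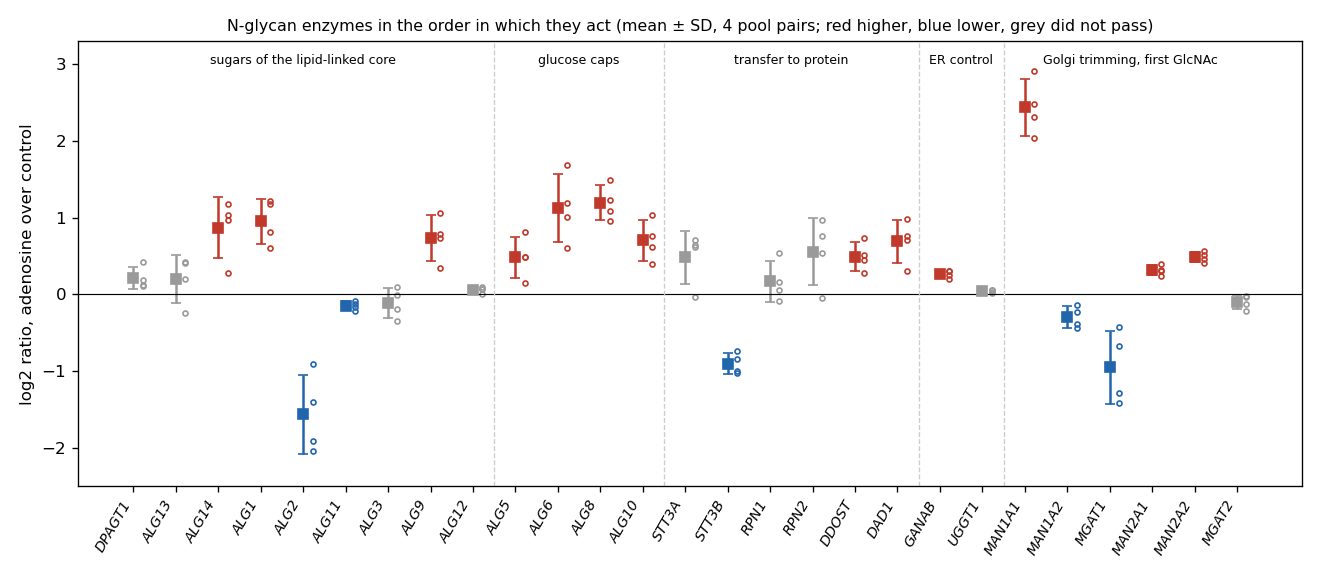
Log2 ratio of adenosine over control for 27 N-glycan enzymes, from left to right in the order in which they act; squares with bars are the mean ± SD of 4 pool pairs and small circles the pairs. The 4 glucose-step genes are all above 0, while ALG2 at -1.56, STT3B at -0.90 and MGAT1 at -0.95 lie furthest below it.

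The oligosaccharyltransferase transfers the finished chain to protein, and its 6 genes among those chosen split, with 2 higher, 1 lower and 3 that did not pass, and a median ratio of 0.49. The catalytic subunits STT3A and STT3B belong to alternative complexes, STT3A acting on chains as they enter the endoplasmic reticulum and STT3B also later. STT3B had levels of 11.20, 11.50, 11.51 and 11.75 with adenosine and 12.22, 12.51, 12.35 and 12.49 in control. The groups did not overlap and the spread within each was small. The ratio fell by 0.90 ± 0.13, or 1.87-fold lower (adjusted p = 0.00152 by limma). A second STT3B probe was lower as well, at -0.66 ± 0.21, and the dimmest gave 0.12 ± 0.21 and did not pass.

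STT3A had ratios of -0.03, 0.71, 0.64 and 0.62, with pair 1 apart from the others, and its mean of 0.48 ± 0.35 did not pass (adjusted p = 0.0648 by limma). Without pair 1, the pair that stood apart, STT3A passed at 0.66, which adds no separate evidence. The difference between the STT3A and the STT3B ratio was 0.99, 1.71, 1.48 and 1.36 in the 4 pairs, with a mean of 1.38 ± 0.30. It was positive in 4 of 4 pairs. The two-sided exact sign-flip permutation test gave p = 0.125, the smallest that 4 pairs allow, so it cannot decide whether the genes differ. STT3B was already called lower on these same ratios, so the shared sign of the difference adds no separate evidence. The difference was read from the brightest STT3B probe. Of the 3 STT3B probes 2 were lower, and the dimmest, at 0.12, did not pass. DAD1, a small subunit needed for the complex to hold together, was higher at 0.69 ± 0.28, and its other probe gave 0.67 ± 0.28. DDOST had ratios of 0.28, 0.51, 0.73 and 0.45 and a mean of 0.49 ± 0.19, or 1.41-fold higher (adjusted p = 0.0123 by limma), although its pool levels overlapped. The ribophorins RPN1 at 0.17 ± 0.27 and RPN2 at 0.56 ± 0.44 did not pass, and RPN2 passed at 0.76 without pair 1. The calls of DAD1 and DDOST were lost without pair 4 (0.68 and 0.51) and with median centring (0.40 and 0.17), and that of DAD1 without pair 3 (0.67). With an offset of 0, DAD1 (0.42) and DDOST (0.27) did not pass either. Of the 6 subunits none was higher in any of the settings without pair 4, with median centring or with an offset of 0, and DDOST (0.49) was also lost when pools were compared without their pairing. With the pool number as a random block over the 8 arrays, STT3A and RPN2 passed and 4 of the 6 were higher.

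After transfer, GANAB, the catalytic subunit of glucosidase II, had ratios of 0.21, 0.30, 0.30 and 0.26. The pairs lay close together, with a mean of 0.27 ± 0.05, or 1.20-fold higher (adjusted p = 0.00395 by limma), while the pool levels of the groups overlapped. Its dimmer probe gave 0.07 ± 0.01 and did not pass, and GANAB at 0.08 did not pass with median centring. UGGT1, which puts a glucose back on misfolded glycoproteins, had ratios of 0.06, 0.06, 0.03 and 0.02 and did not pass at 0.04 ± 0.02 (adjusted p = 0.197 by limma).

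Of 7 mannosidases, 5 were higher and 1 was lower, with a median ratio of 0.31. That is 85.7% called, against 42.6% of all named genes, in a list of only 7. MAN1A1, which removes mannoses from N-glycans in the early Golgi, had the largest rise of all the enzymes. Its levels were 13.63, 13.56, 14.06 and 14.49 in the adenosine pools and 11.31, 11.53, 11.14 and 12.00 in control. The lowest adenosine pool lay more than 1 log2 unit above the highest control pool. The ratio was 2.44 ± 0.37, or 5.42-fold higher (adjusted p = 0.00141 by limma). Its 2 dimmer probes were also higher but by less, at 1.14 ± 0.33 and 0.80 ± 0.27, so the size of the rise differed between probes and the direction did not.

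MAN1A2, a paralog of MAN1A1 with the same trimming role, went the other way. Its ratios were -0.39, -0.43, -0.13 and -0.23, and adenosine pools lay below all control pools. The mean was -0.30 ± 0.14, or 1.23-fold lower (adjusted p = 0.0238 by limma). Without pair 1 (-0.27), pair 2 (-0.25) or pair 4 (-0.32) MAN1A2 did not pass. The other member of that family, MAN1C1, had 0.00 ± 0.09. Golgi mannosidase II removes further mannoses once the first N-acetylglucosamine is in place, and both of its genes were higher. MAN2A2 had ratios of 0.52, 0.46, 0.41 and 0.57, a mean of 0.49 ± 0.07 and no overlap of pool levels (adjusted p = 0.0018 by limma). MAN2A1 was higher at 0.31 ± 0.07, but with median centring its ratio turned to -0.05 and did not pass. MAN2B1 and MAN2C1 are not Golgi enzymes: the lysosomal MAN2B1 was higher at 0.19 ± 0.04 and the cytosolic MAN2C1 at 0.46 ± 0.09. The dimmer MAN2C1 probe gave 0.05 and did not pass. MAN2B1 at 0.19 did not pass without pair 4.

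**Figure D3:**
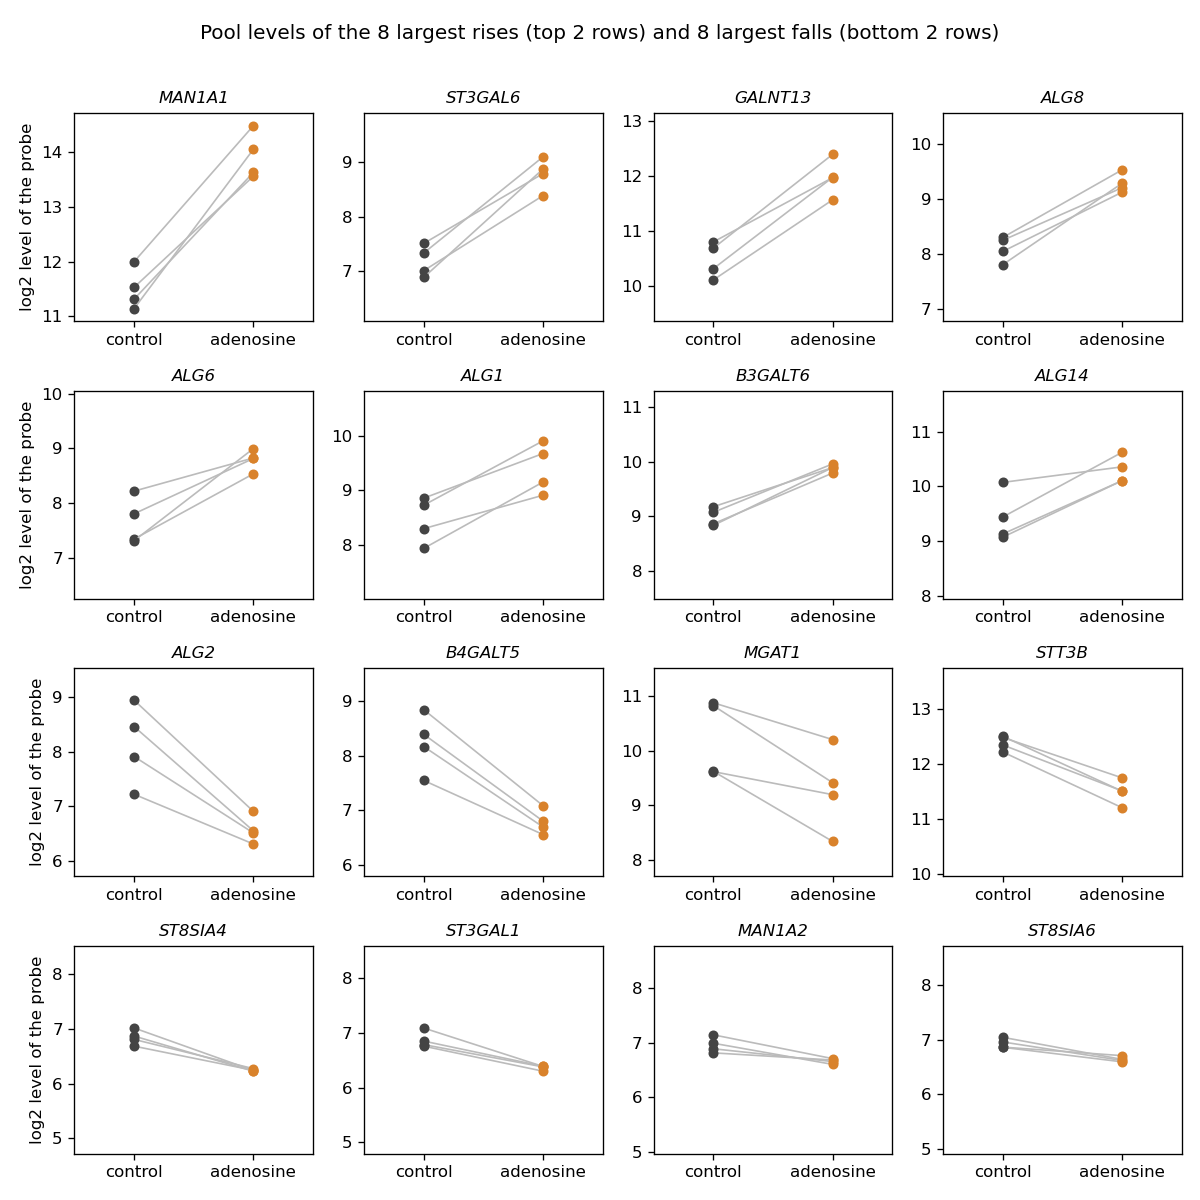
Normalised log2 level in each pool for the 8 called enzymes with the largest rise and the 8 with the largest fall; grey lines join the control and adenosine pool of 1 number and every panel spans the same log2 range. MAN1A1 climbs from 11.14 to 12.00 up to 13.56 to 14.49, and the pools of MGAT1 overlap between the groups.

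Of the 8 N-acetylglucosaminyltransferases that start and branch complex N-glycans, 1 was higher and 1 lower, with a median ratio of -0.05. MGAT1, which adds the N-acetylglucosamine that opens the way to hybrid and complex chains, had levels of 10.20, 9.42, 9.20 and 8.34 with adenosine and 10.88, 10.82, 9.62 and 9.62 in control. Each adenosine pool was below its own control, but pools 1 and 2 were brighter than 3 and 4 in control, so the groups overlapped. The ratio fell by 0.95 ± 0.47, or 1.93-fold lower (adjusted p = 0.0246 by limma). MGAT1 did not pass without pair 1 (-1.04), pair 2 (-0.79) or pair 4 (-0.83). MGAT4B, which adds a branch to the mannose arm that MGAT1 acts on, had ratios of 0.70, 1.02, 0.70 and 1.03. All its adenosine pools were above all control pools, with a mean of 0.86 ± 0.19, or 1.82-fold higher (adjusted p = 0.00317 by limma). The remaining 6 genes, MGAT2, MGAT3, MGAT4A, MGAT4C, MGAT5 and MGAT5B, had ratios between -0.10 and 0.08 and did not pass. Apart from MGAT2 these were dim probes, with a mean log2 brightness between 6.18 and 6.52, among the lowest on this scale.

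Enzymes that add galactose or extend lactosamine chains counted 5 higher, 1 lower and 13 that did not pass of 19, with a median ratio of 0.03. B4GALT5 fell most. It acts mainly on glycolipids, where it makes lactosylceramide. Its levels were 6.69, 7.08, 6.56 and 6.80 with adenosine and 8.17, 8.84, 7.55 and 8.39 in control. The adenosine pools were all below the control pools, with 7 of 8 adenosine values above the negative controls. The ratio fell by 1.45 ± 0.33, or 2.73-fold lower (adjusted p = 0.00325 by limma). B4GALT6, which makes the same glycolipid, was higher at 0.49 ± 0.11, with overlapping levels.

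B4GALT3, which adds galactose to N-glycan antennae, had ratios of 0.77, 0.93, 0.69 and 0.90 and a mean of 0.82 ± 0.11, or 1.77-fold higher (adjusted p = 0.00133 by limma). The groups did not overlap. A second, dim B4GALT3 probe gave 0.04 ± 0.04 and did not pass. B4GALT1, the best known enzyme of this step, had ratios of -0.15, 0.55, 0.51 and 0.48, and did not pass at 0.35 ± 0.33. Without pair 1, the only negative one, B4GALT1 passed at 0.51, which adds no separate evidence. B4GALT2 (-0.10 ± 0.32) and B4GALT4 (-0.07 ± 0.12) did not pass. B3GALT6 and B4GALT7 do not act on N-glycans but build the linker on which glycosaminoglycans are attached to proteoglycans, and both were higher. B3GALT6 had ratios of 1.06, 0.72, 0.89 and 0.93, a mean of 0.90 ± 0.14 and no overlap, or 1.86-fold higher (adjusted p = 0.00167 by limma). B4GALT7 was higher at 0.32 ± 0.07 from a dim probe that was above the negative controls in 4 of 8 control values. B4GALT7 was thus bright enough to be tested only through the adenosine pools, the group where it is higher. Its call carries that selection.

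Of the remaining lactosamine and beta-galactose genes 1 was called. B3GNT3, which extends O-glycan chains, was higher at 0.63 ± 0.16. B3GNT2, the main enzyme of poly-lactosamine chains, was read by 2 bright probes that did not give the same picture. The brighter had ratios of 0.91, -0.95, 1.16 and -0.65, positive in pairs 1 and 3 and negative in pairs 2 and 4, and did not pass at 0.12 ± 1.07. The other had 0.74, 1.10, 1.19 and 0.98 and was higher at 1.00 ± 0.20. By the rule that reads a gene from its brightest probe, B3GNT2 counts as not passed. The others that did not pass, B3GALT1, B3GALT2, B3GALT5, B3GNT4, B3GNT5, B3GNT6, B3GNT8, B3GNT9 and B3GNTL1, had ratios between -0.08 and 0.13, mostly from dim probes.

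Of 6 fucosyltransferases 1 was called, all of them from dim probes with a mean log2 brightness between 6.21 and 6.95. That is 16.7%, against 21.1% of all named genes with a brightness under 7. FUT8 adds the core fucose of N-glycans, and its ratios were 0.32, 0.15, 0.58 and 0.14. All 4 were positive, and the mean of 0.30 ± 0.20 did not pass (adjusted p = 0.0605 by limma). FUT8 passed with the pool number as a random block (0.30), with an offset of 0 (0.53) and with the authors' deposited value table (0.66). FUT5, which in humans makes Lewis-type antigens, was called higher on ratios of 0.14, 0.09, 0.06 and 0.09, a mean of 0.09 ± 0.03, or 1.07-fold (adjusted p = 0.043 by limma). Its pool levels overlapped, and FUT5 did not pass when any pair was left out, at ratios from 0.08 to 0.10. FUT1, FUT2, FUT10 and FUT11 had ratios between -0.17 and 0.01 and did not pass.

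Sialyltransferases moved in both directions, with 4 higher, 3 lower and 8 that did not pass of 15, and a median ratio of 0.04. The 4 higher genes all belong to the ST3GAL family, which links sialic acid to galactose. ST3GAL6, which acts on lactosamine ends, had levels of 8.39, 8.79, 8.87 and 9.10 with adenosine and 7.01, 7.51, 6.89 and 7.34 in control. The groups were well apart. The ratio was 1.60 ± 0.33, or 3.03-fold higher (adjusted p = 0.00265 by limma), and 2 further probes of ST3GAL6 were higher at 0.91 ± 0.09 and 0.56 ± 0.14.

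ST3GAL2 had ratios of 0.72, 0.73, 0.89 and 1.11. Its mean was 0.86 ± 0.18, or 1.82-fold higher (adjusted p = 0.00295 by limma). ST3GAL4 was higher at 0.75 ± 0.28 and ST3GAL3 at 0.28 ± 0.14. ST3GAL1, which like ST3GAL2 sialylates the galactose of O-glycans, went the other way with ratios of -0.41, -0.70, -0.46 and -0.46. Its mean was -0.51 ± 0.13, or 1.42-fold lower (adjusted p = 0.0051 by limma), and the groups did not overlap for either gene. ST3GAL5, which starts the gangliosides, had 0.10 ± 0.17 and did not pass. Without pair 4, ST3GAL4 at 0.69 and ST3GAL3 at 0.31 did not pass, and ST3GAL3 was also lost without pair 1 (0.23) or pair 2 (0.24). With median centring ST3GAL4 at 0.39 did not pass.

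The ST8SIA enzymes extend sialic acid with sialic acid, and 2 of the 4 tested were lower. ST8SIA4, a polysialic acid synthase, had levels of 6.24, 6.24, 6.23 and 6.27 with adenosine and 7.02, 6.69, 6.87 and 6.81 in control. The adenosine pools were almost equal and among the dimmest values measured, and 7 of 8 values were above the negative controls. The ratio fell by 0.60 ± 0.15, or 1.52-fold lower (adjusted p = 0.00414 by limma), a size that the offset holds down, since ST8SIA4 was at -1.47 with an offset of 0. ST8SIA6 had ratios of -0.27, -0.16, -0.34 and -0.40 and a mean of -0.29 ± 0.11 (adjusted p = 0.013 by limma). Its dimmer probe gave -0.01 and did not pass. ST8SIA6 did not pass without pair 3 (-0.28) or pair 4 (-0.25). ST8SIA2 at 0.01 ± 0.04 and ST8SIA5 at -0.19 ± 0.20 did not pass.

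ST6GALNAC2, which sialylates the N-acetylgalactosamine of O-glycans, was the 1 gene whose probes were called in opposite directions. Its brightest probe had ratios of 0.05, -0.09, 0.05 and -0.10 and did not pass, and the others gave 0.14 ± 0.07 (higher), -0.13 ± 0.06 (lower) and 0.01 ± 0.03. No direction is given for it. ST6GAL1, which caps N-glycans with sialic acid, lay at -0.01 ± 0.01, and ST6GALNAC1, ST6GALNAC5 and ST6GALNAC6 between 0.04 and 0.11 without passing.

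Of 11 GALNT-type genes, which start mucin-type O-glycans, 3 were higher and 8 did not pass, with a median ratio of 0.05. That is 27.3% called, against 42.6% of all named genes. GALNT13 had levels of 11.57, 11.97, 11.98 and 12.40 with adenosine and 10.10, 10.80, 10.31 and 10.68 in control. The groups did not overlap. The ratio was 1.51 ± 0.25, or 2.84-fold higher (adjusted p = 0.00168 by limma). GALNT11 had ratios of 0.82, 0.63, 0.94 and 0.69, a mean of 0.77 ± 0.14 and no overlap, or 1.70-fold higher (adjusted p = 0.0022 by limma). GALNT4 was called at 0.10 ± 0.03 from a dim probe and was lost when any pair was left out (0.09 to 0.11), with the pool number as a random block (0.10), with adenosine in Cy3 alone (0.03) and in the authors' deposited value table (0.24). GALNT1, GALNT2, GALNT7, GALNT10, GALNT14, GALNTL1, GALNTL5 and GALNTL6 had ratios between -0.19 and 0.08. GALNT2, which many tissues use, was read from a dim probe and did not pass at 0.08, but passed with an offset of 0 (0.33) and with median centring (0.14).

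Other glycosylation genes, in lists chosen by function, were read from the same fit. Between 40% and 66.7% of each list was called, against 42.6% of all named genes. Of 13 genes for dolichol and mannose supply, 4 were higher and 2 lower, with a median ratio of 0.03. DOLK, which makes the dolichol phosphate that carries the chain, was lower at -0.91 ± 0.17, while SRD5A3, which makes dolichol itself, was higher at 0.70 ± 0.25 and DPM3, a subunit of dolichol-phosphate-mannose synthase, at 0.38 ± 0.08. Of 3 further oligosaccharyltransferase subunits 2 were higher, KRTCAP2 at 1.01 ± 0.17 and TUSC3 at 0.65 ± 0.29, and OSTC did not pass at 0.19 ± 0.13, with a median of 0.65. TUSC3 belongs to the complex with STT3B, and KRTCAP2 and OSTC to that with STT3A. Of 10 genes of folding control and cargo transport 2 were higher and 2 lower, with a median of -0.08. EDEM1, which marks misfolded glycoproteins for degradation, was lower at -0.80 ± 0.08, and its relative EDEM2 was higher at 0.44 ± 0.21. UGGT2, the paralog of UGGT1, was higher at 0.42 ± 0.12. Without pair 4, SRD5A3 (0.73), TUSC3 (0.56) and EDEM2 (0.41) did not pass, nor did TUSC3 and EDEM2 without pair 2 (0.67 and 0.38) or pair 3 (0.58 and 0.45). With median centring TUSC3 (0.30), EDEM2 (0.33) and UGGT2 (0.07) did not pass.

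Of 11 genes of O-glycan cores and other O-glycans, 3 were higher and 2 lower, with a median of -0.02. C1GALT1, which adds galactose to the sugar that the GALNT enzymes place, was lower at -0.72 ± 0.25. POMT1, of O-mannosylation, was higher at 0.37 ± 0.04 and POFUT1, of O-fucosylation, at 0.32 ± 0.08. Of 8 genes of the SLC35 transporter family 2 were higher and 2 lower, with a median of -0.04. SLC35A1, which brings CMP-sialic acid into the Golgi, was higher at 1.03 ± 0.27. SLC35A3, a transporter of UDP-N-acetylglucosamine, was lower at -0.22 ± 0.03 and SLC35B1 at -0.96 ± 0.27. Of 8 enzymes of glycan breakdown 4 were higher and none lower, with a median of 0.12. Over all named genes 21.8% were higher and 20.8% lower. The lysosomal fucosidase FUCA1 was higher at 1.47 ± 0.35, or 2.76-fold, and AGA, which cuts the bond between sugar and asparagine, at 1.06 ± 0.38. FUCA2 was higher at 0.14 ± 0.04 and was lost without any 1 of the pairs (0.12 to 0.16). C1GALT1 did not pass without pair 4 (-0.66).

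The share of calls followed how bright the probes were. Among the 41 enzymes with a mean log2 brightness of at least 7, 24 were higher, 5 lower and 12 did not pass. That is 70.7% called, against 60.7% of all named genes as bright, of which 31.7% were higher and 29% lower. The median ratio of these 41 enzymes was 0.49, against 0.01 for all named genes as bright. Among the 46 dimmer enzymes 5 were higher and 4 lower, or 19.6%, against 21.1% of all dimmer named genes, and their median was 0.01. Dim probes have ratios drawn towards 0 by the offset of 50 that was added to every intensity, so a small ratio there sets no bound on the change of the transcript. With an offset of 0, the same calls held at larger ratios for B4GALT7 (1.0), ST3GAL3 (0.77), MAN2B1 (0.50), GALNT4 (0.35), FUT5 (0.24), MAN1A2 (-0.57), ST8SIA6 (-0.57) and ALG11 (-0.23).

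**Figure D4:**
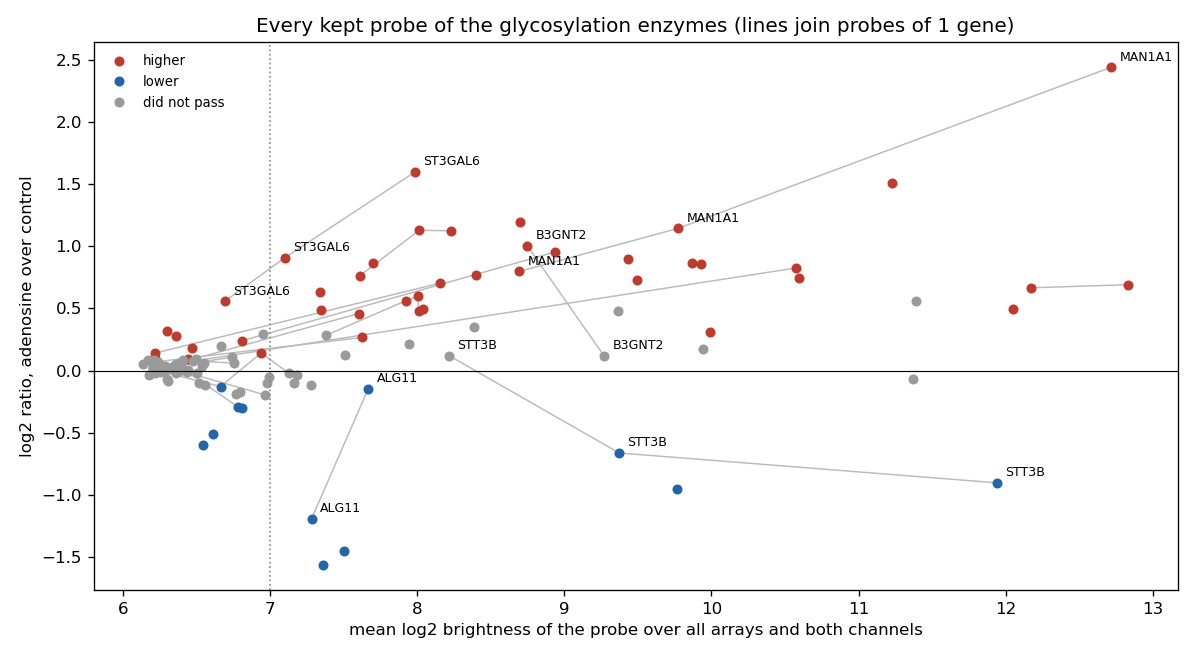
Log2 ratio of adenosine over control of the 114 tested probes against their mean log2 brightness over all arrays and channels, with lines joining probes of 1 gene and a dotted line at 7. Nearly all probes left of the line lie close to 0, and the 3 probes of MAN1A1 fall from 2.44 to 0.80 as they get dimmer.

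Where several probes read the same gene their ratios shared a sign, except for STT3B, GALNTL1 and ST6GALNAC2. Of 18 enzymes with more than 1 tested probe, 7 had all probes called in the same direction, 7 had some called and others not, 3 had none called, and ST6GALNAC2 had calls in both directions. The 7 in full accord were ALG1, ALG10, ALG11, ALG6, DAD1, MAN1A1 and ST3GAL6. No share over all named genes is given beside these counts. Whether a probe can also bind the transcript of a close paralog was not tested.

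Pools of the same group differed among themselves by amounts that matter for the smaller changes. The range over the 4 control pools had a median of 0.33 log2 units over the 87 enzymes. It was widest for B4GALT2 at 1.89, RPN2 at 1.81 and ALG2 at 1.72. For B4GALT2 the control levels were 6.44, 6.35, 8.24 and 7.85 and the adenosine levels 6.55, 6.52, 7.71 and 7.68, so both groups were low in pools 1 and 2 and high in pools 3 and 4. RPN2 was the reverse, at 12.11, 11.71, 10.30 and 10.35 in control and 12.07, 12.24, 11.06 and 11.32 with adenosine. The adenosine and control pools of a number shared the same arrays, so shifts common to both cannot be told apart from array effects. The mean ratio was larger than the whole range of the control pools for 25 of the 38 called enzymes. These 38 were selected by that same ratio, and the share over all called named genes was not computed. The SD of the ratio over pairs had a median of 0.12 over the enzymes, against 0.13 over all named genes.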

How the data were processed

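Amplified RNA of the adenosine and control pools was labelled with Cy3 or Cy5 and hybridised to Agilent arrays, per the labels' protocols. Per the file headers, the deposited scanner files hold spot intensities at both wavelengths with local background. The authors also deposited a table of normalized log2 ratios, used as an alternative. The method of its normalization was not given in the sources used here.

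Intensities were corrected with normexp (offset 50) and loess within arrays in limma 3.58.1 (R 4.3.3), with 1426 control and empty spots at weight 0 and the 9 to 29 spots per array marked as ignored left out. Ratios were turned to adenosine over control, the 2 dye-swapped arrays of a pool number averaged, and 4 values tested against 0 (lmFit, eBayes, Benjamini-Hochberg). Per-pool levels are single-channel log2 values after loess and Aquantile. A probe was tested where it exceeded the mean plus 2 SD of 153 negative control spots in both arrays of at least 3 of 4 pools of either group. The number of arrays limits the precision.

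Probes were named from the platform's annotation, which can be old: 21790 of 43794 had 1 symbol and 22004 none, and 94 of 101 enzyme symbols were in the gene table used. Each gene's value is that of its brightest tested probe. The enzymes, lists and roles were chosen with earlier results of these data known. Pool values are given for the 8 largest rises and falls, the 2 smallest p of each role and genes with opposite probes, and up to 3 genes of each further list by smallest p. The pairing by number comes from the hybridisation. Deviations of same-numbered arrays correlated between 0.784 and 0.933, and for 8 of 8 arrays the best match bore the same number. Each dye orientation lies on 1 slide, so dye and slide cannot be told apart. Scripts were tested on simulated data. Alternatives covered background, normalization, filter, orientation, block, probe choice and left-out pairs. No promoter or probe sequence was used here, so motifs were not searched.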

Additional observations from a re-analysis of the deposited data

Results flagged for a closer look

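In 6 of the 87 enzymes 1 pool pair lay apart from the other 3 by Dixon's test, and chance alone gives about 1 in 20. Pool pair 1 did so in 4 of them and pair 4 in 2. STT3A had a log2 ratio of -0.034 in pair 1, against 0.62 to 0.71 in the others. B4GALT1 had -0.15 in pair 1, against 0.48 to 0.55. Both genes passed the test without that pair. Since the pair was picked for standing apart, these passes add no separate evidence. B3GNT3 had 0.39 in pair 4, against 0.70 to 0.73. The remaining 3 were small differences in dim probes, with MGAT4C at 0.089 in pair 1 (0.01 to 0.02 in the others), B3GALT5 at -0.034 in pair 1 (0.03 in the others) and ST8SIA2 at 0.080 in pair 4 (-0.01 in the others).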

How the results depend on the processing

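Of the 38 called enzymes, 16 passed in the same direction under each of the 17 alternatives in which they could be tested: ALG2, ALG8, B3GALT6, B4GALT3, B4GALT5, B4GALT7, GALNT11, GALNT13, MAN1A1, MAN2A2, MGAT4B, ST3GAL1, ST3GAL2, ST3GAL6, ST8SIA4 and STT3B. The stricter filter left 8 of the 38 untested, among them B4GALT5, B4GALT7, ST3GAL1 and ST8SIA4. The direction was kept by 37 under every alternative, and MAN2A1 turned to -0.049 with median centring. Leaving out 1 replicate gave 6610 to 9696 probes called on the whole array (11881 with all 4), 25 to 40 enzyme probes higher and 7 to 9 lower (42 and 12 with all), 18 to 26 enzymes higher and 5 to 7 lower, and medians of 0.06 to 0.08. The call was lost by 9, 6, 8 and 15 of 38 without replicate 1, 2, 3 and 4. Without the replicate block (pools compared as 4 against 4), 7513 probes were called, 27 enzyme probes and 19 enzymes were higher, and 12 of 38 calls were lost. With the replicate number as a block, 34 enzymes were higher and 11 lower, and 13612 probes were called. The stricter filter gave 7 probes and 5 enzymes lower. The median of the enzymes was 0.086 without background correction, 0.14 with an offset of 0, 0.20 in the authors' table, 0.31 with the stricter filter, 0.033 without a filter and 0.10 from the arrays with adenosine in Cy5 alone. An alternative chosen after seeing the data, without the dim array of pair 3, gave 27 enzymes higher and 9 lower. The cause of these shifts was not tested. Promoter motifs were planned and not run. Probes close to background limit what dim genes can show.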
